A study of Mus musculus with 24 samples.

Results

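Smpdl3b, Lamc1, Gstt2, Dapl1, Osbpl2, Scg2, Lum and Tm4sf5 are 8 genes chosen by the difference in array signal between WT and BAF180-deficient CD4+ T cells in resting or stimulated naïve cells. They are 8 of the 17871 genes on the array and of the 10418 genes with a probe that was detected on at least 1 array. Every member has a single probe, and all 8 probes passed this detection filter. Of the 8 symbols, 7 stand in the deposited table, and Dapl1 was found there under the older symbol 2310032F03Rik, which the RefSeq gene table lists as its synonym. The naïve genotype differences chose the genes, with no fixed threshold, so in naïve cells they are given as a description without a test.

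CD4+ T cells came from mice aged 4 to 6 weeks in which floxed Pbrm1, the gene of BAF180, had been deleted by a Cre driven by the CD4 promoter (KO), and from WT mice. The labels call the mice Balb/c, whereas the methods describe a mixed background. Resting naïve cells were used as isolated from spleen and lymph nodes, at a stated purity of 95%, and stimulated naïve cells had been cultured on antibodies to CD3 (1 µg/ml) and CD28 (2 µg/ml) for 24 h. Th2 cells were activated with the same antibodies and grown with IL-4 at 10 ng/ml, anti-IFN-gamma at 10 µg/ml and IL-2 at 100 U/ml. Stimulated Th2 cells were Th2 cells given PMA (50 ng/ml) and ionomycin (500 ng/ml) in the last 1.5 h. Each of the 8 groups had 3 Illumina MouseRef-8 v2 arrays, with replicate letters A, B and C, 24 arrays in all. The labels do not say that the letters are separate mice, so the p-values measure the spread between these arrays.

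BAF180 is a bromodomain protein of PBAF, a form of the SWI/SNF complex that uses ATP to move nucleosomes and so changes access to promoters and enhancers. T cell activation rebuilds the expressed gene set, and differentiation to Th2 cells fixes part of it. The 8 genes belong to different families. Smpdl3b is a sphingomyelin phosphodiesterase-like protein anchored to the cell surface, and Osbpl2 is a lipid transfer protein of the oxysterol-binding family. Gstt2 is a glutathione transferase of the theta class. Lamc1 is a gamma chain of laminin in basement membranes, and Lum (lumican) is a collagen-binding proteoglycan of the extracellular matrix. Scg2 (secretogranin II) is a granin of secretory vesicles, Tm4sf5 is a membrane glycoprotein of the L6 family, and Dapl1 is a small death-associated protein-like gene.

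A probe is called detected on an array where its detection p was 0.02 or less, which held for 8047 to 10689 probes, and replicate arrays of a group correlated at 0.949 to 0.989 over all probes. Pbrm1 itself was lower in KO arrays, with a log2 difference of -1.01 in resting naïve cells (limma adjusted p = 0.121). The difference was -1.63 in stimulated naïve, -1.86 in resting Th2 and -1.42 in stimulated Th2 cells (limma adjusted p = 0.00746, 0.00101 and 0.0141). Whether its probes lie in the deleted part was not determined. The defining T cell genes were present, since all 6 listed CD4 T cell markers were detected on all 3 arrays of every group. In resting naïve cells 5 of the 7 listed myeloid markers were also detected on all arrays, with a summed signal of 1504 to 4809 in WT and 1724 to 2198 in KO. Itgam and Cybb, also on that list, did not pass the detection filter. In bulk RNA a change in the number of cells that express a gene cannot be told apart from a change in RNA per cell.

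The level of each gene is an array intensity, which depends on the probe, so levels are compared between samples and not between genes. The probes of Gstt2, Scg2 and Lum read open in at least 1 frame and are shown because they are the stretches that were measured; no base is capitalized.
Gstt2 probe: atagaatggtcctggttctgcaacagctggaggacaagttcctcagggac
Scg2 probe: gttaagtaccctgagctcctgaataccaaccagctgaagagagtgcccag
Lum probe: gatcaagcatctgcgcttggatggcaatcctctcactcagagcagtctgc
These letters are those of the deposited table, and how far each probe also binds related transcripts was not tested.

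Detection divided the genes. Osbpl2 was detected on all 24 arrays, Lamc1 and Gstt2 on 22, Smpdl3b on 16 and Dapl1 on 11. Scg2 was detected on 6 arrays, Lum on 5 and Tm4sf5 on 3, so that these 3 genes were near background in most samples.

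**Figure D1:**
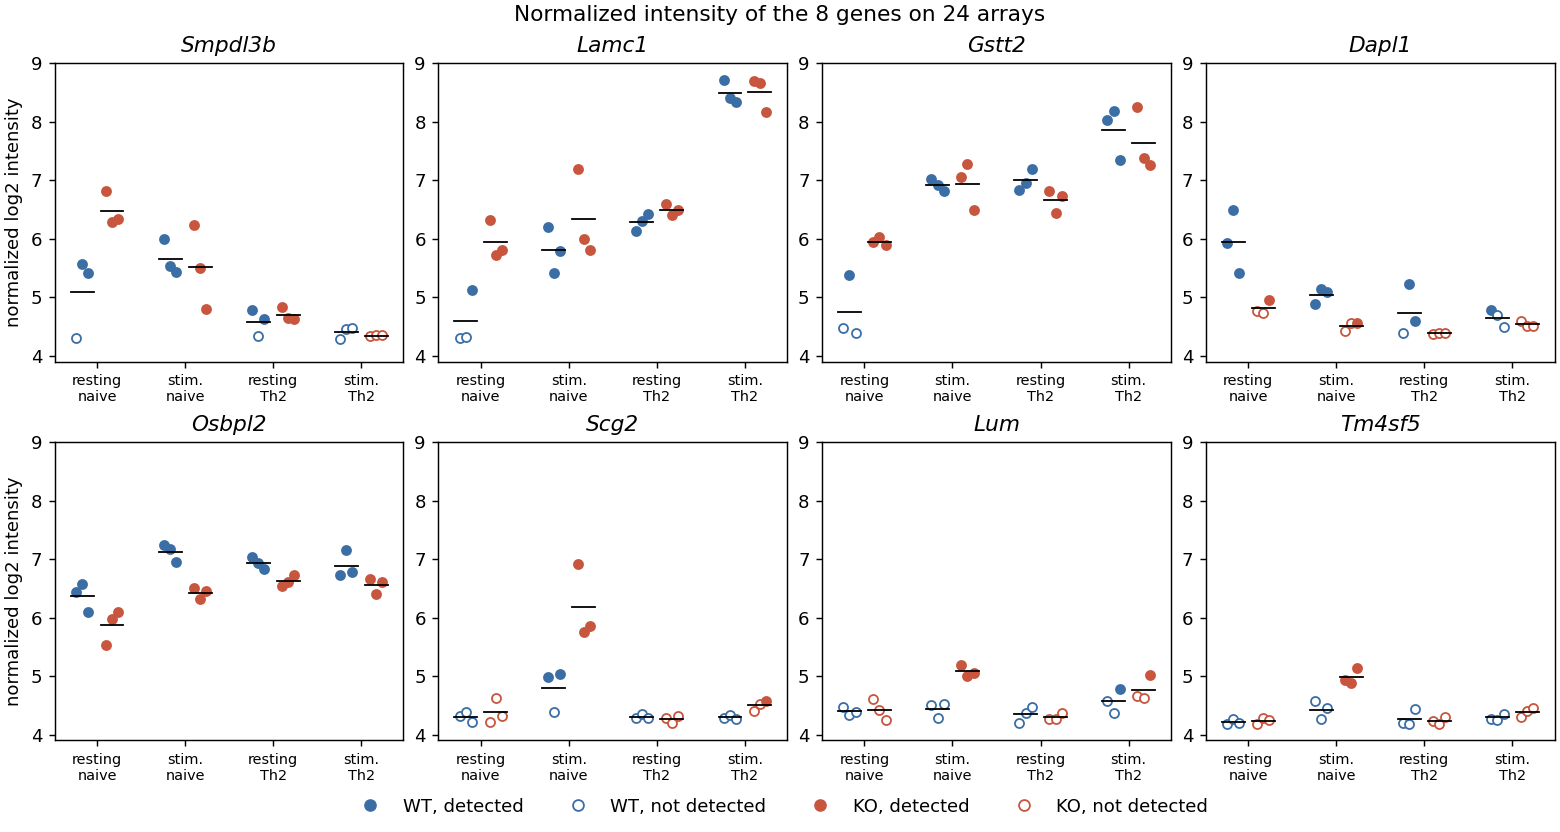
Normalized log2 intensity of each gene (vertical axis) on every array, by cell state (horizontal axis) and genotype. Filled points are detected arrays, open points are not detected, and bars are means of 3 arrays; Scg2, Lum and Tm4sf5 stand above their background in the KO arrays of stimulated naïve cells, where all 3 arrays detected each of them.

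In resting naïve cells Smpdl3b, Lamc1 and Gstt2 were higher and Dapl1 was lower in KO arrays. The deposited intensity of Smpdl3b was 43.1, 53.9 and 60.1 in WT (A, B, C) and 81.9, 66.5 and 85.8 in KO. Every KO array was brighter than every WT array, and WT replicate A was the only array without detection. The normalized log2 level was 5.09 ± 0.69 (SD, n = 3) in WT and 6.48 ± 0.29 in KO, a difference of 1.39 (standard error 0.30) or 2.61-fold. Across the alternatives this difference lay between 0.74 and 1.62.

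The intensity of Lamc1 was 43.2, 40.8 and 54.9 in WT and 68.0, 55.5 and 68.2 in KO resting naïve cells. WT replicate C was the only WT array that detected the gene, and it stayed below all KO arrays. Means of 4.59 ± 0.47 and 5.95 ± 0.32 gave a log2 difference of 1.36 (standard error 0.29). Gstt2 read 45.9, 51.4 and 42.8 in WT and 60.1, 60.8 and 70.7 in KO. The KO arrays all detected it, against WT replicate B alone, and the log2 means of 4.75 ± 0.55 and 5.95 ± 0.07 differed by 1.20 (standard error 0.27).

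Dapl1 went the other way. Its intensity was 58.1, 72.7 and 60.2 in WT and 46.3, 44.1 and 51.3 in KO resting naïve cells. The log2 mean was 5.95 ± 0.54 in WT and 4.82 ± 0.12 in KO, a difference of -1.13 (standard error 0.20), and KO replicate C alone still detected it. Osbpl2 was also lower, at log2 levels of 6.43, 6.58 and 6.10 in WT and 5.54, 5.97 and 6.09 in KO, a difference of -0.50 (standard error 0.15). The highest KO array and the lowest WT array, both replicate C, differed by 0.01, and on the deposited scale the genotypes overlapped. Under Z-score normalization, the scaling of the methods, the differences of Lamc1, Gstt2 and Dapl1 were smaller, at 0.61, 0.56 and -0.52.

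Scg2, Lum and Tm4sf5 were detected on no array of resting naïve cells in either genotype. For them no fold can be given there.

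Markers of memory T cells moved with these differences in resting naïve cells. All 9 listed genes were higher in KO, with a median log2 difference of 0.47, and S100a6 met the 4 criteria given below. Their summed signal was 1733 to 1861 in WT and 2196 to 3322 in KO, without overlap, and 8 of the 9 were detected on all arrays of both genotypes while Anxa1 was detected on none. B cell markers had summed signals of 395 to 833 in WT and 370 to 1089 in KO. The part of these cells in the differences of Smpdl3b, Lamc1, Gstt2 and Dapl1 was not tested.

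In stimulated naïve cells Scg2, Lum and Tm4sf5 were higher in KO arrays, and Osbpl2 and Dapl1 were again lower. Scg2 read 53.8, 44.1 and 61.0 in WT and 126.9, 87.2 and 96.3 in KO. All KO arrays exceeded all WT arrays, and WT replicate B did not detect the gene. The log2 level was 4.80 ± 0.36 in WT and 6.18 ± 0.64 in KO, a difference of 1.38 (standard error 0.22) or 2.60-fold. KO replicate A was the brightest array.

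Lum was not detected on the WT arrays of stimulated naïve cells, at 45.3, 41.7 and 48.2, and was detected on all KO arrays, at 57.0, 59.3 and 60.1. Tm4sf5 behaved alike, at 46.5, 40.8 and 46.7 in WT and 52.8, 55.9 and 62.3 in KO. Against the lowest signal among detected probes on each WT array, or the gene's own signal where that was higher, Lum was at least 1.35-fold and Tm4sf5 at least 1.26-fold higher in KO. Their log2 means were 4.44 ± 0.13 and 5.09 ± 0.10 for Lum, and 4.43 ± 0.16 and 4.98 ± 0.13 for Tm4sf5. These are intensities close to background, although detected on every KO array.

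Osbpl2 showed its lowest KO level relative to WT in the same state. Its log2 level was 7.24, 7.16 and 6.96 in WT and 6.50, 6.32 and 6.46 in KO, a difference of -0.70 (standard error 0.15), and here the deposited intensities did not overlap either. Dapl1 was again lower in KO, by 0.52 on the log2 scale, with 51.8, 55.6 and 63.0 in WT and 45.8, 48.8 and 46.3 in KO. Smpdl3b (-0.14), Gstt2 (0.02) and Lamc1 (0.53) overlapped between the genotypes. Leaving out single arrays moved Smpdl3b between -0.50 and 0.22 and Gstt2 between -0.15 and 0.24, and without KO replicate A the difference of Lamc1 was 0.10.

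Stromal, endothelial and epithelial cells express Lum, Lamc1 or Tm4sf5 in other tissues. Their part in these differences was not tested. Of 10 stromal markers 4 passed the filter, and none was detected on all 3 arrays of either genotype in stimulated naïve cells. Col1a1, Col1a2, Col3a1 and Dcn were detected on none of the 24 arrays. The summed stromal signal there was 20.9 to 24.3 in WT and 11.5 to 18.6 in KO, where all 4 genes in KO and 3 of the 4 in WT were detected on no array. Epcam and Krt18, epithelial markers, were likewise detected on no array. The summed epithelial signal of the other 2 genes was 6.93 to 14.6 in WT and 8.62 to 17.2 in KO. The 3 endothelial markers that passed the filter were all higher in KO stimulated naïve cells, with a median log2 difference of 0.14 and summed signals of 32.5 to 50.4 in WT and 32.5 to 70.7 in KO. Of the 9 memory T cell markers 7 were higher there, with a median of 0.20 and summed signals of 684 to 1040 in WT and 827 to 1160 in KO. None of these endothelial or memory markers met the criteria in that state.

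Among all 14246 kept probes, 4 criteria taken from the methods were met by 0.681% in resting and 0.112% in stimulated naïve cells. They require a positive mean signal, a Z-ratio beyond 1.5 in either direction (the difference divided by the SD of all differences), an unadjusted p under 0.05 and an FDR under 0.3. The offset added in the normalization makes every normalized value positive. The criterion of the mean signal could therefore exclude no probe, and the other criteria alone decided. Since the same contrasts chose the genes, nothing is read from the members against these shares.

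**Figure D2:**
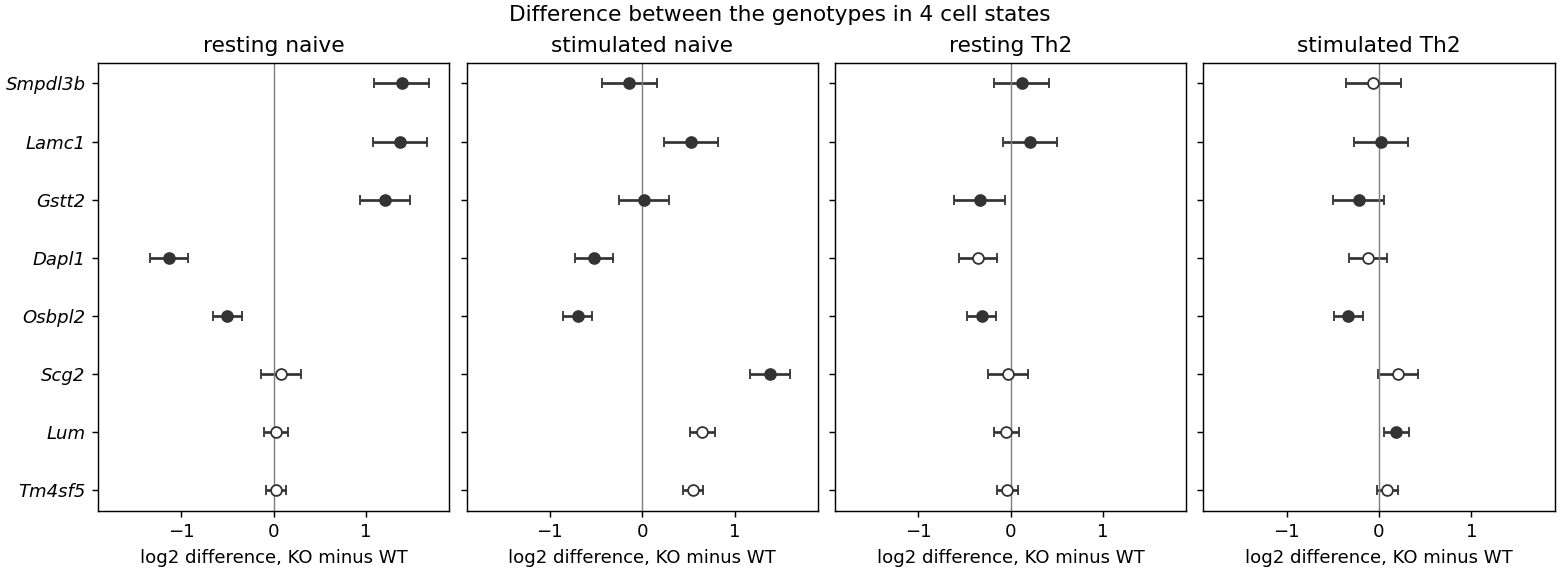
Log2 difference KO minus WT of each gene in 4 cell states, with bars of 1 standard error of the limma fit (3 arrays against 3). Open points mark a genotype with no detecting array; the naïve panels chose the genes, and in both Th2 panels all 8 differences lie between -0.35 and 0.21.

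The Th2 arrays had no part in the choice, so there the genotypes were tested. In resting Th2 cells 0 of the 8 genes met the criteria, where 0.0842% of all probes did, and 0 had an unadjusted p below 0.05 (limma). In stimulated Th2 cells 0 of 8 met them against 0.0913% of all probes, and 1, Osbpl2, had an unadjusted p below 0.05. Scg2, Lum and Tm4sf5 had no detecting array in resting Th2 cells, and Smpdl3b and Tm4sf5 had none in stimulated Th2 cells. For these genes background values were compared, so their place in the counts says nothing about the genotypes. The adjusted p was 1.00 for every gene in both states. The median member difference was -0.04 in resting and -0.02 in stimulated Th2 cells, and the median over all probes was 0.00 in both.

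The genes that were higher in KO resting naïve cells gave small values in Th2 cells. Smpdl3b differed by 0.12 in resting Th2 cells, with a 95% confidence interval of -0.50 to 0.74, and no array of stimulated Th2 cells detected it. Lamc1 differed by 0.21 (-0.40 to 0.82) and 0.03 (-0.58 to 0.63). Gstt2 had the opposite sign, -0.34 (-0.91 to 0.24) in resting and -0.22 (-0.79 to 0.35) in stimulated Th2 cells. The intervals are wide, and they do not show that the genotypes were equal.

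The normalized mean of Osbpl2 was lower in KO than in WT arrays of every state. Its normalized log2 level in resting Th2 cells was 7.04, 6.93 and 6.84 in WT and 6.54, 6.61 and 6.72 in KO. In stimulated Th2 cells it was 6.74, 7.15 and 6.78 in WT and 6.66, 6.41 and 6.61 in KO. The genotypes did not overlap in either state, as for 60 of all probes (0.421%) that lay lower in KO without overlap in both Th2 states. The differences were -0.31 (95% confidence interval -0.63 to 0.01, unadjusted p = 0.0573) and -0.33 (-0.65 to -0.01, unadjusted p = 0.0443) by limma, and neither passed after adjustment (adjusted p = 1.00). On the deposited scale the intensities overlapped, at 116 to 210 in WT and 119 to 207 in KO resting Th2 cells, and they also overlapped after Z-score normalization. The deposited mean in resting Th2 cells was higher in KO, at 166 against 152 in WT, so the lower KO level there depends on the normalization.

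Dapl1 was the other gene with a lower KO mean in all 4 states. In resting Th2 cells it was detected on 2 WT arrays and on no KO array, at 45.6, 55.8 and 47.4 against 44.2, 46.3 and 49.3. Normalized means of 4.74 in WT and 4.38 in KO gave a log2 difference of -0.35 (limma unadjusted p = 0.101, adjusted p = 1.00). Leaving out single arrays moved this difference between -0.53 and -0.11, so no minimum fold is given. In stimulated Th2 cells only WT replicate A detected it.

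Scg2, Lum and Tm4sf5 were not detected on any resting Th2 array. After stimulation 1 KO array detected Scg2, at 52.2, while the other KO arrays read 43.4 and 45.5 and the WT arrays 40.9, 44.4 and 42.6. The normalized KO values, with a mean of 4.50, all lay above those of WT, with a mean of 4.30 (limma adjusted p = 1.00), and no fold is given because no WT array detected the gene. Lum was detected on replicate C of both genotypes, at 63.2 in WT and 65.3 in KO, and Tm4sf5 on no stimulated Th2 array. Genotypes did not overlap for 3 of the 8 genes in resting Th2 cells (Gstt2, Dapl1 and Osbpl2) and for 2 in stimulated Th2 cells (Scg2 and Osbpl2), where this held for 10.1% and 7.31% of all probes. The set changed with the scaling. Under Z-score normalization Lamc1 alone did not overlap in resting Th2 cells (KO above), and Scg2 and Tm4sf5 did not in stimulated Th2 cells (KO above). On the deposited scale Lamc1 in resting Th2 cells was the only one of the 8 genes without overlap in either Th2 state.

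Normalized values were also read as pairs by their letter. The KO array was lower than its WT partner for Osbpl2 in all 3 pairs of both Th2 states, and for Gstt2 and Dapl1 in all 3 resting Th2 pairs. On the deposited scale KO replicates B and C of resting Th2 cells were higher than their WT partners for Osbpl2 (173.1 and 206.6 against 116.2 and 130.5). The same held for Gstt2 (154.7 and 208.5 against 117.4 and 158.4), and for Dapl1 in replicate C (49.3 against 47.4). The KO array was higher for Lamc1 in all 3 resting Th2 pairs (by 0.46, 0.11 and 0.07). It was also higher for Scg2, Lum and Tm4sf5 in all 3 stimulated Th2 pairs, by 0.07, 0.25 and 0.24 for Lum and 0.03, 0.15 and 0.10 for Tm4sf5, where most arrays did not detect them. With the letter as a block in limma, 0 of the 8 genes met the criteria in either Th2 state.

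Whether the genotype difference changed with stimulation was tested in Th2 cells, the comparison that uses no naïve array. The fitted change lay between -0.19 for Lamc1 and 0.24 for Lum, which was detected on 2 of these 12 arrays. With limma 0 of 8 genes and 0 of all probes passed at an adjusted p below 0.05, and 257 probes but 0 of the 8 genes had an unadjusted p below 0.05. The difference between naïve and Th2 cells was not tested, because the naïve values chose the genes.

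**Figure D3:**
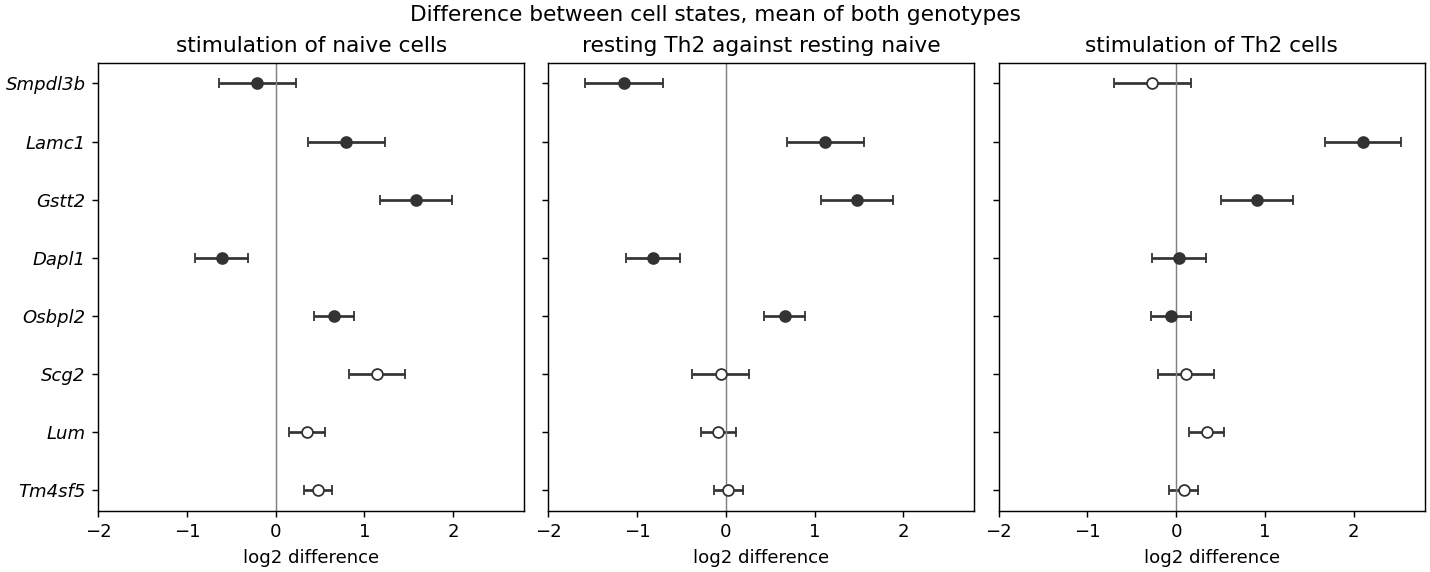
Log2 difference between cell states for each gene, averaged over both genotypes (6 arrays against 6), with 95% confidence intervals from limma. Open points mark a state in which no array detected the gene. Lamc1 and Gstt2 rose in all 3 comparisons, and those with naïve cells reuse arrays that chose the genes.

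The cell states themselves, averaged over both genotypes, were also compared. Stimulation of naïve cells changed 7 of 8 (6 higher, 1 lower) at a limma adjusted p below 0.05, where 55.0% of all probes passed. This count partly restates the choice of the genes, because the KO arrays that chose Scg2, Lum and Tm4sf5 are in the comparison. Smpdl3b, which did not pass, had a log2 difference of -0.21 over both genotypes, with 0.56 in WT and -0.97 in KO. Its values by genotype are a description, since the resting naïve arrays chose it. In WT arrays alone 4 of 8 passed (Lamc1, Gstt2 and Osbpl2 higher, Dapl1 lower), where 43.6% of all probes did. The WT naïve arrays also took part in the choice, so this count restates it in part too. Resting Th2 and resting naïve cells differed in 5 of 8 (3 higher, 2 lower in Th2), where 49.7% of all probes passed. Resting naïve arrays that chose genes are in this comparison as well. Stimulation of Th2 cells changed 3 of 8, all higher, where 38.8% of all probes passed. With shares of this size over all probes, these counts show nothing particular to the 8 genes.

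Gstt2 and Lamc1 rose in each comparison over both genotypes. Gstt2 was 2.99-fold higher in stimulated than in resting naïve cells (log2 difference 1.58, standard error 0.19, limma adjusted p = 5.7e-07). It was 2.79-fold higher in resting Th2 than in resting naïve cells, and rose a further 1.88-fold when Th2 cells were stimulated (adjusted p = 2.38e-06 and 0.000674). The resting naïve arrays in these comparisons also chose Gstt2. Its log2 difference with stimulation of naïve cells was 2.17 in WT and 0.99 in KO. Between resting Th2 and resting naïve cells it was 2.25 in WT and 0.71 in KO. These values by genotype are a description without a test, because they contain the resting naïve difference that chose Gstt2. Lamc1 was 4.30-fold higher in stimulated than in resting Th2 cells (log2 difference 2.11, standard error 0.21, limma adjusted p = 5.52e-08), a comparison that uses no naïve array. With stimulation of naïve cells it rose 1.74-fold over both genotypes (limma adjusted p = 0.00246). The resting naïve arrays of this comparison also chose the gene. The log2 difference was 1.21 in WT and 0.38 in KO. Between resting Th2 and resting naïve cells it was 1.70 in WT and 0.55 in KO. The values of Lamc1 by genotype are likewise a description without a test. In stimulated Th2 cells Lamc1 read 303.5, 438.7 and 692.7 in WT and 308.1, 333.6 and 440.2 in KO. All of these exceeded every array of the other states, the highest of which read 177.3. In WT cells the order of Lamc1 was stimulated Th2, resting Th2, stimulated naïve and resting naïve, and the second and the third in that order overlapped.

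Smpdl3b and Dapl1 had lower means in Th2 than in naïve cells, but these differences rest on resting naïve arrays that chose the genes. Smpdl3b was 2.21-fold lower in resting Th2 than in resting naïve cells over both genotypes, given as a description because the KO arrays of resting naïve cells held its highest values. In WT the difference was -0.51 and the states overlapped. Dapl1 was 1.77-fold lower in resting Th2 and 1.52-fold lower in stimulated naïve cells than in resting naïve cells over both genotypes. Within WT arrays the log2 differences were -1.21 and -0.91, and within KO arrays they were -0.43 and -0.31. The WT resting naïve arrays held the highest values of Dapl1 and chose it, so these differences are a description without a test too.

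Osbpl2 was 1.57-fold higher in stimulated naïve and 1.58-fold higher in resting Th2 than in resting naïve cells (limma adjusted p = 3.01e-05 and 4.05e-05). The naïve arrays here also chose Osbpl2. Its log2 differences in this order were 0.75 and 0.57 in WT, and 0.56 and 0.76 in KO. It did not pass the test between resting and stimulated Th2 cells (log2 difference -0.06, 95% confidence interval -0.29 to 0.17).

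Scg2, Lum and Tm4sf5 are described without a test in the comparison of naïve states, since the KO arrays of stimulated naïve cells chose them. Scg2 was at least 1.58-fold higher in stimulated than in resting naïve cells over both genotypes, and 2 of the 3 WT arrays detected it after stimulation against 0 at rest. For Lum and Tm4sf5 the 3 detecting arrays were all KO, and no WT array of either naïve state detected them. Over both genotypes Lum was also at least 1.06-fold higher in stimulated than in resting Th2 cells (limma adjusted p = 0.00604), with 2 of 6 stimulated arrays detecting it. The test did not pass in WT arrays alone (limma adjusted p = 0.251) and passed in KO arrays alone (0.0137).

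Promoters of 5 members (250 bases before to 50 after the start) are in the RefSeq sequence table. The cAMP response element TGACGTCA was found in that of Scg2, 68 to 61 bases before the start, and in none of the other 4. On either strand it occurs in 1.79% of 32851 promoters. The element is shown with 30 bases on each side because Scg2 had the largest KO to WT difference of the 8 genes in stimulated naïve cells; the element is in capitals (GRCm38.p6, chr1:79440057-79440124, minus strand).
Scg2 promoter: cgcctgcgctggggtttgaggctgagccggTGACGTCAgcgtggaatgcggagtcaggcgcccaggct
The AP-1 motif TGANTCA occurred in Osbpl2 alone (7.81% of promoters), and GGAAA, the core of NFAT sites, in Smpdl3b and Dapl1 (61.3% of promoters). These are matches of letters only.

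Other genes of the members' families gave few genotype calls. Of 74 relatives listed, 67 are on the array and 30 passed the filter. In resting naïve cells 1 of the 30 met the 4 criteria, beside 0.681% of all probes, and 0 did in each of the other 3 states. That gene was Osbpl3, an oxysterol-binding protein like Osbpl2, which was higher in KO resting naïve cells (log2 means 7.43 and 6.36, difference 1.08, limma adjusted p = 0.206), opposite to Osbpl2. The count depended on single arrays. It was 0 when KO replicate B or WT replicate A of the resting naïve cells was left out. It was 2 when their WT replicate C, or KO replicate C of stimulated Th2 cells, was left out.

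None of the 12 other small leucine-rich proteoglycans, the family of Lum, and none of the 3 L6 proteins on the array besides Tm4sf5 was detected anywhere. Of the glutathione transferases 17 passed the filter. Stimulation of naïve cells raised 6 of them, among them Gsto1 (0.86) and Gstz1 (0.64), and lowered 5, among them Mgst2 (-2.48) and Gstk1 (-1.46). The median of the 17 was -0.09, and the 11 calls stand beside 55.0% of all probes. Of the 4 sphingomyelinases kept, Smpd1 (-0.69) and Smpdl3a (-2.21) fell in the same comparison and Smpd4 (0.35) rose. The other 2 granins that passed the filter, Scg5 and Vgf, passed as lower in stimulated naïve cells, whereas Scg2 was higher, but they were detected on 4 and 2 of the 24 arrays.

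**Figure D4:**
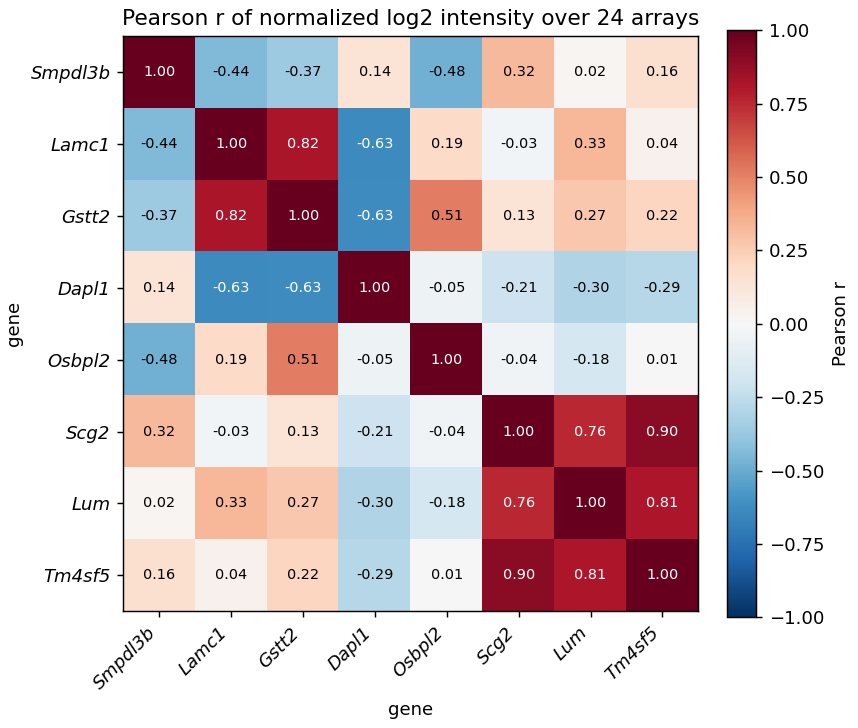
Pearson correlation of normalized log2 intensity between the 8 genes over 24 arrays, as a description. Scg2, Lum and Tm4sf5 form a block with r of 0.76 to 0.90, and Lamc1 and Gstt2 a pair with r = 0.82. The naïve arrays that chose the genes are included, so part of this follows from the choice.

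Over the 24 arrays, which fall into 8 groups of cells, Scg2 correlated with Tm4sf5 at r = 0.90 and with Lum at 0.76. Lum and Tm4sf5 correlated at 0.81, and most of their points are background values. The same KO arrays of stimulated naïve cells chose Scg2, Lum and Tm4sf5, so part of these correlations follows from the choice. Resting naïve arrays likewise chose Lamc1, Gstt2 and Dapl1. Lamc1 and Gstt2 correlated at 0.82, and Dapl1 ran against both, at -0.63 with each. Among all genes the pattern most like Lamc1 was that of Srxn1 (r = 0.94). Gstt2 was most like Elovl1 (0.93), Dapl1 most like Ppox (0.90) and Osbpl2 most like Fam185a (0.82). Scg2 was most like Idi2 (0.94), which was detected on 5 arrays. The closest gene to Lum outside the 8 was Il17f (0.75). That to Tm4sf5 was Rps27a (0.87), by a probe that was detected on only 3 of the 24 arrays.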

How the data were processed

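RNA of 24 samples was measured on BeadChips. The authors deposited one intensity per probe and array, extracted with GenomeStudio (version 1.6.0 in the submitters' processing notes) and neither normalized nor background-subtracted (lowest 25.8 to 30.3). With each intensity came a detection p-value, also deposited. Of 25697 probes, the 14246 detected (p of 0.02 or less) on 1 array or more were kept. Probes were renamed by Entrez ID, RefSeq accession, symbol or synonym (GRCm38.p6 table). Background correction from the detection p-values, an offset of 16, a log2 scale and quantile normalization were applied (neqc, limma 3.58.1, R 4.3.3), in place of the Z-scores of the methods. A limma model of 8 group means was fitted to 24 arrays (16 residual degrees of freedom), and p-values were adjusted by Benjamini-Hochberg over kept probes. The FDR and p of the 4 criteria were taken from limma. The number of arrays limits the precision. The calling was tested on simulated data.

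The members and lists were chosen with earlier results of these data known. Named were the members, Pbrm1, fixed lists of relatives and cell markers, and the 3 genes most correlated with each member. The replicate letters were read as pairs, because the study describes 3 pairs and deviations of same-letter arrays correlated at 0.301 (A), 0.136 (B) and 0.516 (C). The alternatives were other normalizations, filters and fits, a replicate block and leaving out each array. Comparisons within WT or KO arrays alone were added after seeing the data. The header names no slide. Some relatives and correlated genes are not reported here.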

Additional observations from a re-analysis of the deposited data

How the results depend on the processing

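The counts of genes called by genotype in resting and stimulated Th2 cells, and by the genotype by stimulation interaction, were 0 under every alternative run. Leaving out each array in turn left the count at 7 for stimulation of naïve cells, 5 for Th2 against naïve cells at rest and 3 for stimulation of Th2 cells. With only WT arrays in the contrast, stimulation of naïve cells changed 4 genes in place of 7, and with only KO arrays resting Th2 and naïve cells differed in 3 in place of 5. Stimulation of Th2 cells changed 2 genes in WT arrays alone, without Lum, in place of 3. With the replicate block, which treats the letters as pairs, the member counts were 0, 0, 7, 5 and 3 in the order of resting Th2 genotype, stimulated Th2 genotype, naïve stimulation, Th2 against naïve and Th2 stimulation, and no member's call changed. The relatives called fell from 1 to 0 under Z-score normalization, normalization within the cell state and fits of only the arrays compared, and ranged from 0 to 2 when single arrays were left out. Under Z-score normalization Lum lost its call for stimulation of naïve cells (0.13, adjusted p = 0.123), while Lamc1 in stimulated Th2 cells (-0.00600) and Tm4sf5 in resting Th2 against naïve cells (-0.0397) turned sign. Leaving out single arrays also turned the sign of uncalled differences of Smpdl3b, Scg2, Lum and Tm4sf5 by genotype in resting Th2 cells (lowest and highest values -0.000628 to 0.218, -0.0577 to 0.00402, -0.119 to 0.0154 and -0.0817 to 0.0475). The same held for Lamc1 by genotype in stimulated Th2 cells (-0.0720 to 0.198), for Tm4sf5 in Th2 against naïve cells (-0.0131 to 0.0515) and for Dapl1 with stimulation of Th2 cells (-0.0533 to 0.154). By genotype in stimulated naïve cells, the differences of Smpdl3b (-0.502 to 0.218) and Gstt2 (-0.151 to 0.241) also changed sign when single arrays were left out. Smpdl3b gained a call for stimulation of Th2 cells (-0.27, adjusted p = 0.025) when only Th2 arrays were fitted. The number of all probes called by genotype moved by more than 1.5 times in each state, from 97 (naïve, resting), 16 (naïve, stimulated), 12 (Th2, resting) and 13 (Th2, stimulated). It was 32, 5, 23 and 15 in this order under Z-score normalization, 7, 19, 62 and 17 with normalization within the state, and 1, 0, 1 and 0 with only the arrays compared. It was 5 and 4 in stimulated naïve cells without background correction and with detection on at least 3 arrays, and 9 and 5 in stimulated naïve and resting Th2 cells without a detection filter. The cause of these changes was not tested. Slide could not be used as a block, as the header names none. Signals near background limit Scg2, Lum, Tm4sf5 and Dapl1, whose fitted differences rest on background values where a group has no detecting array.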
